A study of Mus musculus with 22 samples.

Results

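The insulin-like growth factor (IGF) system was followed through 10 genes picked by symbol from 24060 gene rows: the ligands Igf1 and Igf2, the receptors Igf1r and Igf2r, and the binding proteins Igfbp2, Igfbp3, Igfbp4, Igfbp5, Igfbp6 and Igfbp7. Each had counts in all 6 sample groups. RNA was measured in spinal cord of young adult female mice. All animals carried mGFAP-Cre, a Cre recombinase under a mouse Gfap promoter, and RiboTag, an allele that puts a hemagglutinin (HA) tag on ribosomes of cells with Cre activity. The groups were uninjured wild-type mice (WT, n = 4), WT mice 14 days after a severe crush spinal cord injury at thoracic level 10 (WT SCI, n = 4), and mice with additional STAT3-LoxP alleles at the same time after the same injury (STAT3-CKO SCI, n = 3). STAT3 is a transcription factor of cytokine signalling, and the STAT3-CKO label stands for its conditional knockout through that Cre. The genotype comparison was made in injured cord alone. In injured animals the central 3 mm of the lesion was taken. Each of the 11 animals gave a library of RNA pulled down with tagged ribosomes (HA IP) and a library of the unbound RNA of the same tissue (flow-through), 22 libraries in all.

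IGF1 and IGF2 are secreted growth factors that activate IGF1R, a receptor tyrosine kinase that signals through PI3K, AKT and mTOR to growth, survival and protein synthesis. IGF2R binds IGF2 and carries it to lysosomes without kinase signalling. The binding proteins hold the ligands outside the cell, prolong or limit their access to IGF1R, and are cut by proteases that free the ligand. IGFBP7 binds IGFs weakly compared with the others and is also known as a secreted protein of vessels and extracellular matrix. In nervous tissue IGF1 supports neurons and myelin-forming cells, and microglia and macrophages are known to make it after injury.

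The regions before the starts of Igfbp5 and Igfbp7 are printed because these were the members that differed between the injured genotypes in HA IP. Each is the 250 bases upstream of the start, read 5′ to 3′ on the gene's strand, from RefSeq on GRCm38.p6. Capitals mark CG dinucleotides.
Igfbp5, chr1:72874866-72875115, minus strand: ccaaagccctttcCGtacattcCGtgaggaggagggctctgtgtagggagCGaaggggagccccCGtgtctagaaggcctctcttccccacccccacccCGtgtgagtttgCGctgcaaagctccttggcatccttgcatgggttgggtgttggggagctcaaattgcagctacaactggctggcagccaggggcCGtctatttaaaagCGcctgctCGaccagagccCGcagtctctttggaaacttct
Igfbp7, chr5:77408046-77408295, minus strand: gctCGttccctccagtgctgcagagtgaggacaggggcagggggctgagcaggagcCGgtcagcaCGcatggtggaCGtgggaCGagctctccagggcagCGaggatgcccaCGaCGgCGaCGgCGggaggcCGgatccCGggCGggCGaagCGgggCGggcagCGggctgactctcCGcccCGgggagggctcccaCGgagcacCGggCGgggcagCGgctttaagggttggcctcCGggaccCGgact
The Igfbp5 stretch held 10 CG dinucleotides and 58.8% G or C, and the Igfbp7 stretch held 26 and 74%. Over the 32851 RefSeq starts in the same table, the median was 6 CG dinucleotides in 250 bases, the quartiles were 2 and 16, and 92.1% held at least 1. The motif TTCNNNGAA, the palindromic letters of a STAT site, reads the same on both strands. It was found in 0 of 14 windows of the 10 members, taken from 250 bases before to 50 bases after each start, and in 8.30% of all such windows (2726 of 32851). The search says only that these letters are not in these windows.

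HA IP libraries held 31292491 to 59337089 counts and flow-through libraries 3898755 to 11242654. Rn45s, a ribosomal RNA precursor, took 12.6% to 26.7% of HA IP counts in uninjured cord, 89% to 96.2% in WT SCI, against 52.2% to 89.2% in STAT3-CKO SCI. The 10 members together had 12009 to 27202 counts per HA IP library in uninjured cord, 672 to 2982 in WT SCI, against 1325 to 13922 in STAT3-CKO SCI. In flow-through they had 623 to 3043, 94 to 755 and 385 to 5920, so precision was lowest in WT SCI flow-through. In every animal, each member's HA IP count was at or above its flow-through count. Whether HA IP counts include unbound RNA or reads of the flow-through library was not tested. Stat3, the targeted gene, was at 12.2 to 15.5 CPM (counts scaled to a common library size) in uninjured HA IP, 26.3 to 66.2 in WT SCI, against 7.85 to 12.3 in STAT3-CKO SCI, a genotype difference of -2.17 ± 0.34 log2 (SE; edgeR adjusted p = 0.0033). Against uninjured WT, Stat3 in STAT3-CKO SCI was at -0.44 ± 0.32 log2 (adjusted p = 0.45), which missed the threshold. Of 12 astrocyte markers, 12 were higher in HA IP than in flow-through in uninjured cord, 10 in WT SCI and 12 in STAT3-CKO SCI. HA IP held more of 6 of 7 oligodendrocyte precursor markers in uninjured cord (1 lower), 5 in WT SCI and 6 in STAT3-CKO SCI. Their medians were 1.39, 2.49 and 2.21 log2. Ependymal markers were higher for 5 of 6 in uninjured cord, 0 of 1 tested in WT SCI and 0 of 4 in STAT3-CKO SCI. Of 9 oligodendrocyte and myelin markers, 8 were lower in HA IP in uninjured cord, and 2 were higher in each injured group. Of all genes tested, 26.4%, 4.09% and 7.12% were called higher in these states and 24.2%, 2.16% and 4.7% lower. Microglia and macrophage markers, 15 genes, summed to 11.7 to 26.6 CPM in uninjured HA IP, 639 to 2426 in WT SCI, against 924 to 1221 in STAT3-CKO SCI.

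Levels are CPM on library sizes scaled by the trimmed mean of M values (TMM) within 1 fraction, so an HA IP level and a flow-through level stand on different scales. Differences are log2 fold changes with their standard error from edgeR's quasi-likelihood test, and a gene was called when its Benjamini-Hochberg adjusted p over all genes tested was under 0.05. In bulk RNA, fewer cells of a type and less RNA per cell cannot be told apart.

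After injury, both ligands, Igfbp3, Igfbp5 and Igfbp7 were higher and Igfbp4 was lower in WT HA IP RNA. These were 5 of 10 members called higher and 1 called lower, where 15.8% of the 14764 genes tested were called higher and 10.9% lower. The median difference of the members was 1.88 log2, against 0.00017 for all genes tested. In STAT3-CKO SCI, 2 of the 10 were lower than in WT SCI, Igfbp5 and Igfbp7, and 0 higher, where 0.562% of all genes were called lower and 0.596% higher. Injured STAT3-CKO against uninjured WT HA IP RNA gave 2 members higher, Igf1 and Igf2, and 0 lower, where 7.7% of genes were called higher and 2.08% lower. The comparisons with WT SCI share its 4 libraries, and those with uninjured WT share theirs.

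**Figure D1:**
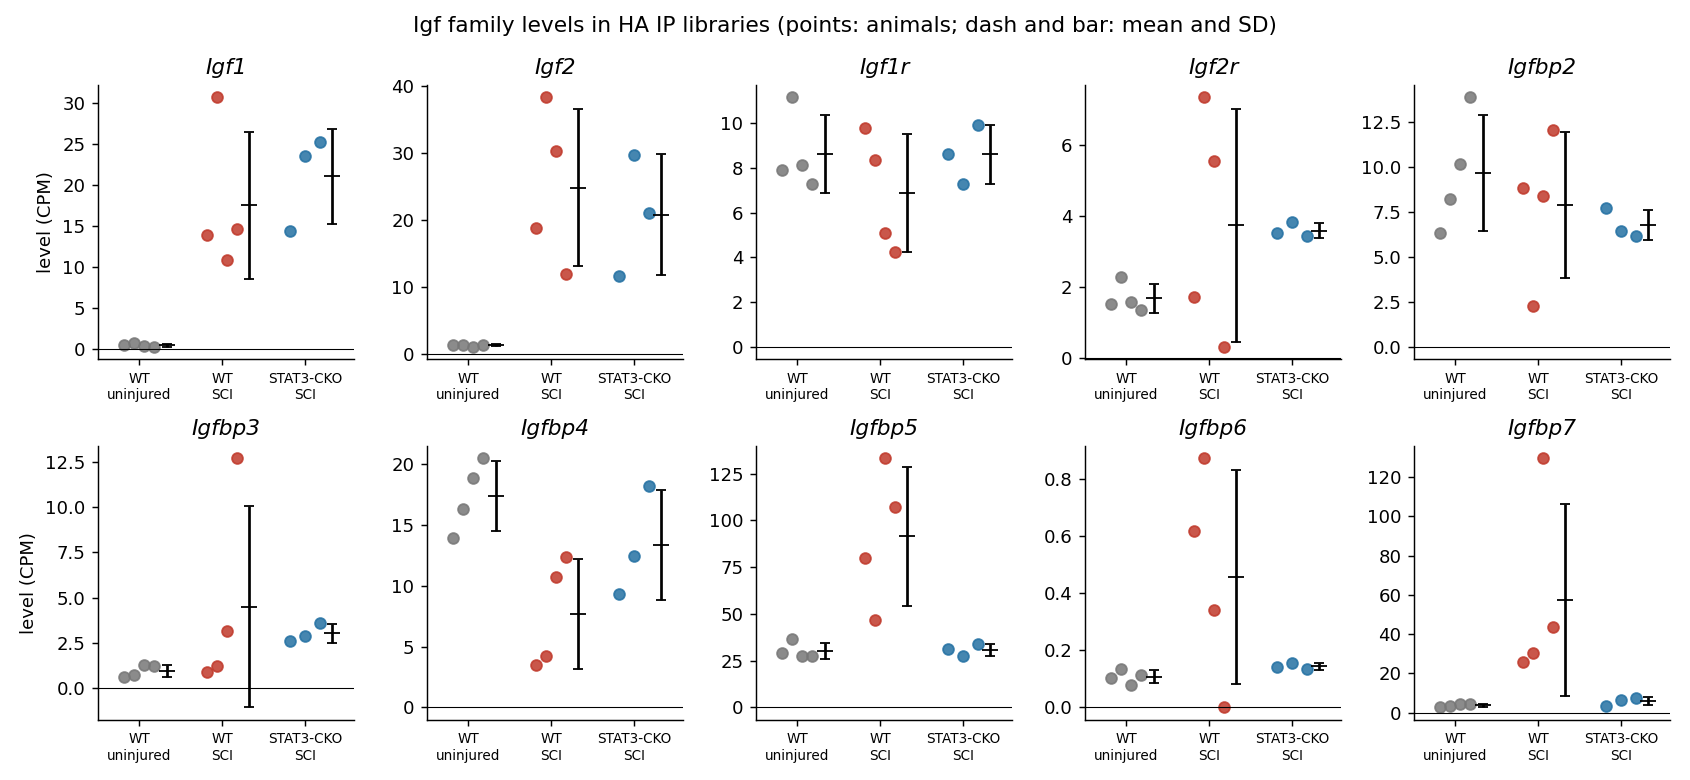
Level in CPM (vertical axis, linear, a separate scale for each gene) of the 10 members in HA IP libraries of WT uninjured (n = 4), WT SCI (n = 4) and STAT3-CKO SCI animals (n = 3). Points are animals, and the dash and bar beside them are the mean and SD. Igfbp5 and Igfbp7 points of STAT3-CKO SCI lie below all WT SCI points, while Igf1 and Igf2 points of both injured groups overlap.

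Igf1, which codes for the ligand that growth hormone controls in the body, was low in uninjured HA IP. Its level there was 0.271, 0.361, 0.485 and 0.66 CPM in the 4 animals, from 52 to 223 counts. In WT SCI it was 10.9, 13.8, 14.7 and 30.7 CPM, and in STAT3-CKO SCI 14.4, 23.5 and 25.2 CPM. Every injured library of either genotype lay above every uninjured one, and the injured genotypes overlapped. WT SCI animals 9935, 9874, 9843 and 9596 had 45, 96, 176 and 202 Igf1 counts in HA IP. Their flow-through libraries had 34, 79, 115 and 176. The part of unbound RNA in the HA IP level was not tested. The injury difference in WT was 5.29 ± 0.45 log2 (39-fold, adjusted p = 2.93e-07). Between injured genotypes it was 0.27 ± 0.41 log2 (adjusted p = 0.78), with a 95% interval of -0.53 to 1.06.

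Igf2, the ligand best known from fetal growth and imprinting, was at 1.18, 1.39, 1.4 and 1.49 CPM in uninjured HA IP. The WT SCI libraries were at 12.1, 18.9, 30.3 and 38.4 CPM, and the STAT3-CKO SCI libraries at 11.8, 21.1 and 29.8 CPM. Injured and uninjured libraries did not overlap, and the injured genotypes did. WT SCI animals 9935, 9874, 9843 and 9596 had 37, 268, 220 and 275 Igf2 counts in HA IP. Their flow-through libraries had 36, 163, 194 and 270, and the part of unbound RNA in the HA IP level was not tested. The injury difference was 4.20 ± 0.41 log2 (18.3-fold, adjusted p = 1.03e-06). The genotype difference after injury was -0.26 ± 0.39 log2 (adjusted p = 0.79, interval -1.02 to 0.51).

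In flow-through the ligands showed the same groups apart. Igf1 was at 1.56, 1.56, 2.3 and 2.81 CPM in uninjured flow-through. It was at 60, 61.2, 67 and 84.8 CPM in WT SCI and at 60.3, 81.2 and 87.1 CPM in STAT3-CKO SCI. Igf2 was at 6.92 to 10.2 CPM in uninjured, 71 to 143 in WT SCI, against 54.4 to 193 in STAT3-CKO SCI flow-through. Injury differences were 5.04 ± 0.32 log2 for Igf1 (adjusted p = 5.97e-12) and 3.72 ± 0.35 log2 for Igf2 (adjusted p = 5.89e-09). Injured libraries of either genotype were above all uninjured ones for both ligands.

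Relative to library size, both ligands were lower in HA IP than in flow-through in every state. Their raw HA IP counts were at or above those of flow-through in every animal, in deeper libraries. Uninjured animals 42, 79, 65 and 154 had 503, 268, 193 and 397 Igf2 counts in HA IP. Their flow-through libraries had 456, 236, 156 and 345. How far the scaled differences follow the depth of the libraries was not tested. For Igf1 the difference was -1.94 ± 0.37 log2 in uninjured cord, -1.78 ± 0.38 in WT SCI and -1.57 ± 0.31 in STAT3-CKO SCI, with adjusted p between 0.0011 and 0.0068. Without the flow-through library of WT SCI animal 9843 the Igf1 value in WT SCI was -1.60 with an adjusted p of 0.0528. For Igf2 it was -2.33 ± 0.19, -1.93 ± 0.38 and -2.32 ± 0.42 log2, with adjusted p of 0.0034 or less. Of microglia and macrophage markers, 8 of 14 tested were called lower in HA IP and 1 higher in uninjured cord, 11 of 14 lower in WT SCI and 10 of 15 lower in STAT3-CKO SCI. Of all genes, 24.2%, 2.16% and 4.7% were called lower. The markers had median differences of -1.38, -1.8 and -1.32 log2. With injury in WT, 14 of 15 of these markers were called higher in HA IP and 14 of 15 in flow-through, with medians of 5.03 and 5.39 log2. Their part in the ligand differences was not tested.

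The ligands were also set against each other. The ratio of Igf1 to Igf2 counts in HA IP was 0.323 ± 0.10 (SD, n = 4) in uninjured cord, 0.777 ± 0.35 in WT SCI (n = 4) and 1.07 ± 0.24 in STAT3-CKO SCI (n = 3). In flow-through it was 0.257 ± 0.098, 0.668 ± 0.20 and 0.720 ± 0.34. In HA IP the lowest WT SCI ratio, 0.358, lay inside the uninjured range of 0.194 to 0.443, while in flow-through the WT SCI range of 0.485 to 0.944 lay above the uninjured range of 0.153 to 0.388. These ratios are descriptions within each library, with no test.

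Neither receptor was called in HA IP between any of the groups in the main fit. Igf1r, the signalling receptor, was at 7.27 to 11.2 CPM in uninjured, 4.24 to 9.81 in WT SCI, against 7.3 to 9.92 in STAT3-CKO SCI HA IP, and all groups overlapped. Its injury difference was -0.30 ± 0.36 log2 (adjusted p = 0.56) and its genotype difference 0.30 ± 0.39 log2 (adjusted p = 0.74, interval -0.46 to 1.06). In flow-through the Igf1r injury difference was -0.02 ± 0.49 log2 (adjusted p = 0.98). It also did not pass the test between fractions, at -0.15 ± 0.20 log2 in uninjured cord, -0.47 ± 0.71 in WT SCI and 0.07 ± 0.39 in STAT3-CKO SCI.

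Igf2r, the clearance receptor, was spread widely in WT SCI. In HA IP it was at 1.36, 1.51, 1.58 and 2.28 CPM in uninjured, 0.326, 1.71, 5.54 and 7.32 CPM in WT SCI, and 3.43, 3.5 and 3.81 CPM in STAT3-CKO SCI. The lowest WT SCI value, in animal 9935, rested on 1 count. All STAT3-CKO SCI libraries lay above all uninjured ones, at 1.09 ± 0.63 log2 (adjusted p = 0.33). With only these 2 groups in the edgeR fit, the adjusted p was 0.0234. The WT injury difference was 1.17 ± 0.61 log2 (adjusted p = 0.16), and without animal 9935 it was 1.5 with an adjusted p of 0.0315.

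In flow-through, Igf2r was at 3.51 to 5.17 CPM in uninjured, 1.97 to 14.8 in WT SCI, against 9.55 to 14.6 in STAT3-CKO SCI. STAT3-CKO SCI against uninjured was called, at 1.42 ± 0.46 log2 (adjusted p = 0.0367). This call was lost when any single uninjured or STAT3-CKO SCI flow-through library was left out, with values of 1.20 to 1.49 log2. Igf2r was lower in HA IP than in flow-through in uninjured cord (-1.08 ± 0.23 log2, adjusted p = 0.0027) and in STAT3-CKO SCI (-1.39 ± 0.42 log2, adjusted p = 0.0354). The uninjured call was lost with all 22 libraries in 1 edgeR fit (-1.175 log2, adjusted p = 0.0961). The STAT3-CKO SCI call was lost without any 1 of its 6 libraries, at values of -1.17 to -1.49 log2.

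Igfbp5, which codes for a matrix-binding IGF binding protein, was at 27.4, 27.6, 28.9 and 36.3 CPM in uninjured HA IP. In WT SCI it was at 46.6, 79.7, 107 and 133 CPM, and in STAT3-CKO SCI at 27.5, 31.3 and 33.8 CPM. WT SCI libraries were above all others, and STAT3-CKO SCI libraries lay within the uninjured range. Igfbp5 rose by 1.61 ± 0.29 log2 with injury in WT (3.05-fold, adjusted p = 0.000438). After injury it was -1.57 ± 0.32 log2 in STAT3-CKO against WT (adjusted p = 0.0214). Leaving out STAT3-CKO SCI animal 186, 531 or 270 kept the size (-1.57, -1.64 and -1.51) and gave adjusted p of 0.0674, 0.0877 and 0.108. STAT3-CKO SCI against uninjured gave 0.04 ± 0.30 log2 (adjusted p = 0.96).

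Igfbp7, the member with low IGF affinity, showed the largest genotype difference of the 10. It was at 2.66, 3.17, 4.24 and 4.3 CPM in uninjured HA IP. In WT SCI it was at 25.7, 30.3, 43.7 and 130 CPM, and in STAT3-CKO SCI at 3.57, 6.43 and 7.35 CPM. The lowest WT SCI library was above the highest library of both other groups. The injury difference in WT was 4.00 ± 0.47 log2 (16-fold, adjusted p = 6.31e-06). STAT3-CKO against WT after injury was -3.30 ± 0.51 log2 (9.85-fold lower, adjusted p = 0.00277). Both calls were kept under each of 18 alternatives, with values of 3.20 to 4.25 for injury and -3.55 to -2.50 for genotype. STAT3-CKO SCI against uninjured was 0.70 ± 0.45 log2 (adjusted p = 0.39).

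Markers of other cells were set beside the Igfbp7 and Igfbp5 values. The 8 endothelial markers summed to 0.245 to 0.541 CPM in uninjured, 0.343 to 5.21 in WT SCI, against 0.992 to 4.55 in STAT3-CKO SCI HA IP. Of these, 3 were tested and 0 called with WT injury or between injured genotypes: with injury Kdr was at 3.11 ± 1.20 log2 (adjusted p = 0.0611), Esam at 3.02 ± 1.35 (adjusted p = 0.10) and Slco1a4 at 0.29 ± 1.47 (adjusted p = 0.90). Cdh5, Cldn5 and Pecam1 were at 0 in all 4 WT SCI HA IP libraries, the HA IP group with the fewest counts outside ribosomal RNA (620265 to 2691494). Fibroblast, meningeal and pericyte markers, 11 genes, summed to 15.3 to 20.7 CPM in uninjured cord and 11.5 to 64.5 in WT SCI, against 26 to 39 in STAT3-CKO SCI. With WT injury 3 of 9 tested were called higher, Col1a1 (3.53 ± 0.62 log2), Col3a1 (5.07 ± 1.05) and Dcn (2.45 ± 0.81), and 0 lower, while between injured genotypes 0 of 9 were called. The summed level of 12 astrocyte markers was 3248 to 5651 CPM in WT SCI, against 2803 to 3639 in STAT3-CKO SCI HA IP. The sum of 9 oligodendrocyte and myelin markers, 5834 to 8497 CPM in WT SCI, did not overlap with 3500 to 4110 CPM in STAT3-CKO SCI. With WT injury, 7 of 9 of these (median 1.48 log2) and 7 of 7 oligodendrocyte precursor markers (median 1.70) were called higher in HA IP. Of the tested markers between injured genotypes, 1 of 12 astrocyte, 1 of 9 oligodendrocyte and 0 of 15 microglia and macrophage genes were called lower, and 1 of 6 Schwann cell genes was called higher. The astrocyte gene was Gfap, at -2.13 ± 0.32 log2 (edgeR adjusted p = 0.0025), while the astrocyte list had a median of 0.49 log2. With WT injury Gfap was called higher, at 1.62 ± 0.28 log2. The part of these cells in the Igfbp5 and Igfbp7 differences was not tested.

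Igfbp4, an inhibitory binding protein that the protease PAPP-A cuts, was the member called lower after injury. It was at 13.9, 16.3, 18.8 and 20.5 CPM in uninjured HA IP. In WT SCI it was at 3.5, 4.18, 10.8 and 12.4 CPM, all below the uninjured libraries, and in STAT3-CKO SCI at 9.32, 12.5 and 18.2 CPM. The injury difference was -1.21 ± 0.40 log2 (adjusted p = 0.0308). It missed the threshold without uninjured animal 42, 79 or 65 or without WT SCI animal 9843 or 9596, with values from -0.95 to -1.23 log2 and adjusted p of 0.0604 to 0.0834. The genotype difference after injury was 0.83 ± 0.42 log2 (adjusted p = 0.33, interval 0.0039 to 1.66). Its unadjusted edgeR p was 0.064, so the approximate interval excludes 0 where the test does not pass. Of 12 astrocyte markers, 7 were called lower and 1 higher with WT injury in HA IP, with a median of -0.91 log2, and their part in the Igfbp4 difference was not tested.

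Igfbp2, a binding protein known from astrocytes and choroid plexus, had overlapping levels in all HA IP groups. It was at 6.36 to 13.9 CPM in uninjured, 2.27 to 12.1 in WT SCI, against 6.14 to 7.71 in STAT3-CKO SCI. The injury difference was -0.31 ± 0.42 log2 (adjusted p = 0.62) and the genotype difference -0.21 ± 0.46 log2 (adjusted p = 0.86, interval -1.11 to 0.69).

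Igfbp3, the main carrier of IGFs in serum, was called higher after injury, with 1 library far above the rest. It was at 0.603, 0.725, 1.19 and 1.3 CPM in uninjured HA IP and at 0.891, 1.22, 3.17 and 12.7 CPM in WT SCI. The 2 lower WT SCI libraries lay inside the uninjured range, and animal 9935 gave the highest value. The difference was 2.15 ± 0.71 log2 (adjusted p = 0.031), and 0.88 without animal 9935 (adjusted p = 0.26). Leaving out uninjured animal 42, 79, 65 or 154 also ended the call, with adjusted p of 0.0515 to 0.0908. STAT3-CKO SCI libraries were at 2.59, 2.9 and 3.62 CPM, all above the uninjured ones, at 1.67 ± 0.71 log2 (adjusted p = 0.16). With only these 2 groups in the edgeR fit it was 1.68 (adjusted p = 0.00767).

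Igfbp6, a binding protein that prefers IGF2, had 45 counts or fewer in every HA IP library. It was at 0.0796 to 0.133 CPM in uninjured HA IP and 0.134 to 0.156 in STAT3-CKO SCI. WT SCI libraries were at 0, 0.339, 0.617 and 0.872 CPM, which rested on 0, 3, 9 and 5 counts. Animal 9935 had the 0, where 3 counts would have been 0.978 CPM, above every level seen in HA IP. The flow-through counts of the same WT SCI animals, in the same order, were 0, 3, 9 and 2. STAT3-CKO SCI animals 186, 531 and 270 had 2, 5 and 18 counts in HA IP and the same counts in flow-through. Whether the Igfbp6 counts of injured HA IP libraries come from tagged ribosomes was not tested. The injury difference was 2.18 ± 0.82 log2 (adjusted p = 0.0552), and 2.47 without animal 9935 (adjusted p = 0.0241).

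**Figure D2:**
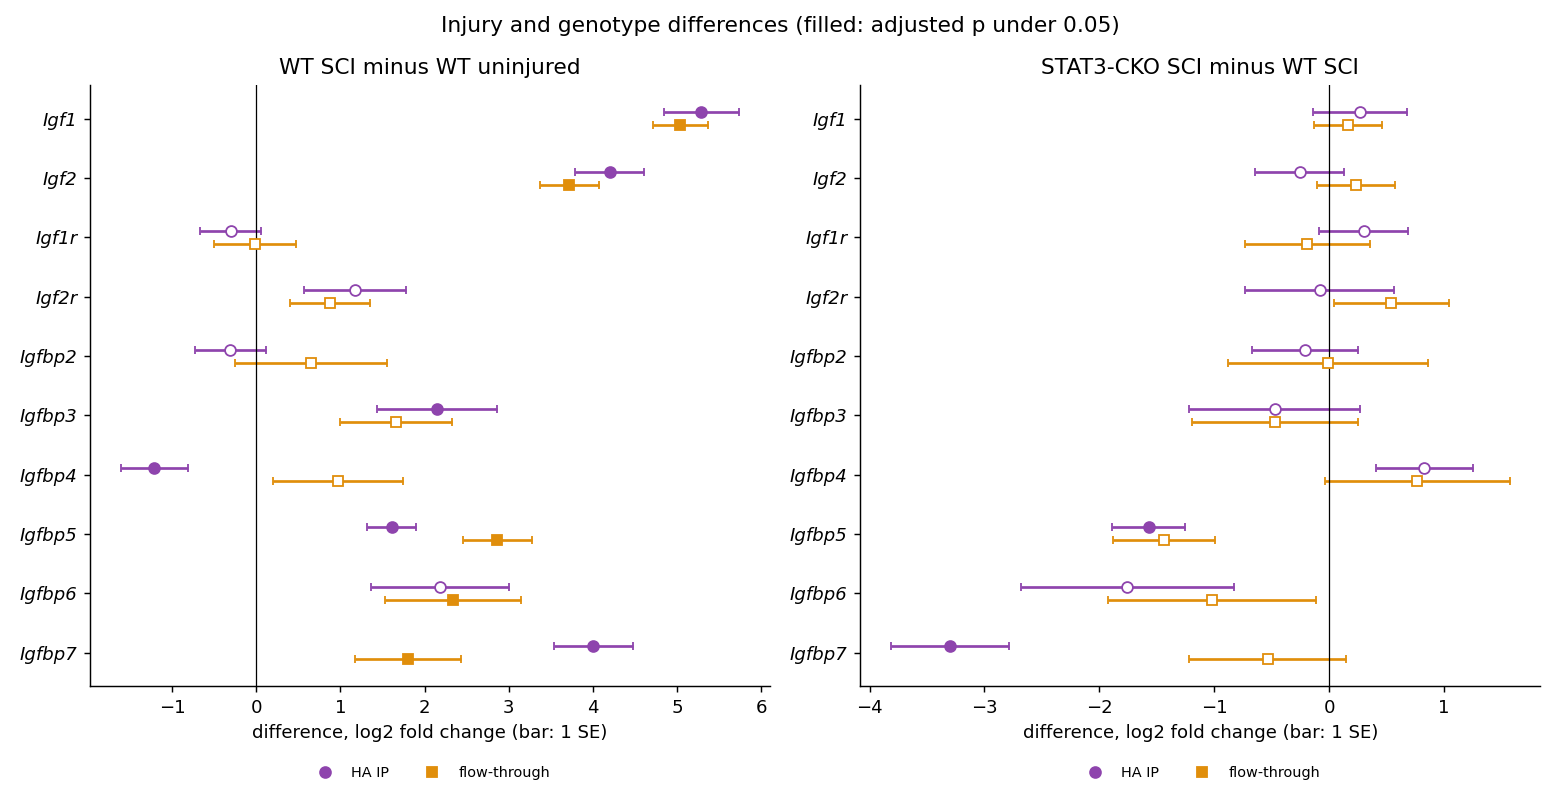
Log2 fold change (horizontal axis, bars 1 SE) of each member for WT SCI minus WT uninjured (left) and STAT3-CKO SCI minus WT SCI (right), in HA IP (circles) and flow-through (squares). Filled symbols had an adjusted p under 0.05. Igf1 and Igf2 lie at 3.72 to 5.29 in both fractions after injury, and Igfbp7 in HA IP lies at -3.30 between the injured genotypes.

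Composition was compared on a scale per length, CPM per kilobase of annotated exon. In uninjured HA IP the order of mean levels was Igfbp2 at 5.24 ± 1.74 (SD, n = 4), Igfbp5 at 5.00 ± 0.71, Igfbp4 at 3.94 ± 0.65 and Igfbp7 at 2.97 ± 0.67 CPM per kilobase. Within libraries, Igfbp2 was above Igfbp5 in 2 of 4, Igfbp5 above Igfbp4 in 3 of 4 and Igfbp4 above Igfbp7 in 4 of 4. The receptors, ligands and the other binding proteins followed, from Igf1r at 0.513 ± 0.10 to Igf1 at 0.0449 ± 0.017. In WT SCI, Igfbp7 led at 47.4 ± 40.4, followed by Igfbp5 at 15.3 ± 6.19, Igf2 at 4.35 ± 2.05 and Igfbp2 at 4.27 ± 2.21 CPM per kilobase. Igfbp7 was above Igfbp5 in 4 of 4 of these libraries, at 21.3 against 13.3, 25.1 against 7.75, 107 against 22.2 and 36.1 against 17.8 CPM per kilobase, and Igf2 was above Igfbp2 in 2 of 4. In STAT3-CKO SCI (n = 3), Igfbp5 at 5.14 ± 0.52, Igfbp7 at 4.78 ± 1.63, Igfbp2 at 3.66 ± 0.45 and Igf2 at 3.65 ± 1.58 lay close together.

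As a share of the summed level per length of Igfbp2 to Igfbp7, Igfbp7 was 16.8% ± 1.70 (SD, n = 4) in uninjured HA IP. It was 63.2% ± 12.5 in WT SCI (n = 4) and 26.6% ± 6.41 in STAT3-CKO SCI (n = 3). The WT SCI shares, 51.9% to 77.9%, were all above those of uninjured (15.3% to 19.1%) and STAT3-CKO SCI libraries (19.2% to 30.8%). Igfbp4 went the other way, with 22.4% ± 0.71, 2.62% ± 1.09 and 16.8% ± 3.27. Igfbp2 had 29.3% ± 5.16, 7.02% ± 4.32 and 21.2% ± 5.49. The Igfbp5 share was 29.2% ± 6.72, 24.1% ± 6.96 and 29.3% ± 3.94, so its higher level in WT SCI came with a share like that in the other groups. The shares are taken within a library and do not depend on its scaling, and they sum to a fixed total, so 1 member's share moves those of the others.

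**Figure D3:**
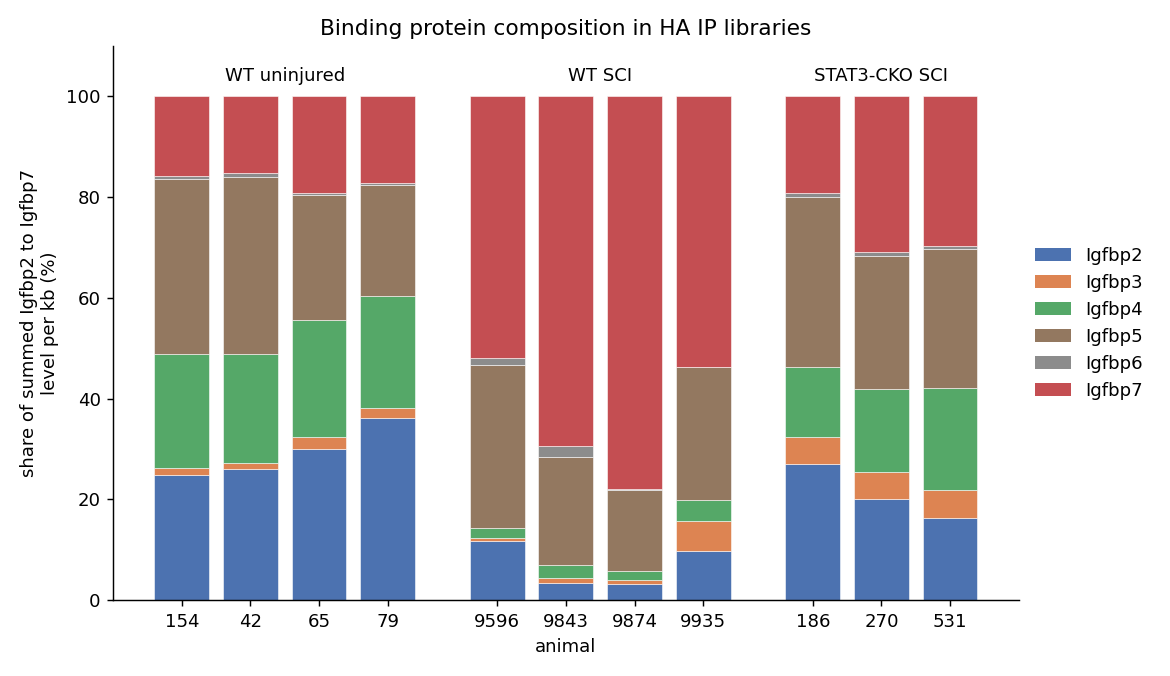
Share in percent (vertical axis) of each binding protein in the summed level per kilobase of Igfbp2 to Igfbp7, as 1 stacked bar per HA IP library, with animals on the horizontal axis. Igfbp7 fills 51.9% to 77.9% of the WT SCI bars and at most 30.8% of any other bar.

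In flow-through, injury in WT raised 5 of 10 members and lowered 0, where 16.7% of 12685 genes tested were called higher and 14.3% lower. The members' median was 1.73 log2, against -0.09 for all genes. Beside the ligands these were Igfbp5, Igfbp6 and Igfbp7. Igfbp5 was at 2.63, 3.59, 5.03 and 9 CPM in uninjured and at 15.8, 37.6, 43.4 and 47 CPM in WT SCI, which do not overlap. Its difference was 2.87 ± 0.41 log2 (adjusted p = 5.34e-06). STAT3-CKO SCI flow-through had Igfbp5 at 7.95, 12.1 and 21.1 CPM. This was between the other groups and overlapped with both.

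Igfbp7 in flow-through was at 1.22, 1.4, 1.6 and 6.08 CPM in uninjured and 1.55, 7.38, 11.8 and 15.3 CPM in WT SCI, and the groups overlapped. Its difference of 1.8 ± 0.63 log2 (adjusted p = 0.0314) was lost without uninjured animal 79, 65 or 154 or WT SCI animal 9935 or 9596. The lowest value, 1.23 (adjusted p = 0.221), came without animal 9596. Igfbp6 was at 0.14 to 0.78 CPM in uninjured and 0 to 3.07 in WT SCI flow-through, at 2.34 ± 0.81 log2 (adjusted p = 0.0301). That call was lost without uninjured animal 65 or 154 or WT SCI animal 9874 or 9596, with values of 1.92 to 2.28. Igfbp3 had 1.66 ± 0.67 log2 (adjusted p = 0.0591), and 1.90 or 1.88 without WT SCI animal 9935 or 9843 (adjusted p = 0.0247 and 0.0434). Igfbp4 had 0.97 ± 0.77 (adjusted p = 0.36) and Igfbp2 0.65 ± 0.90 (adjusted p = 0.62).

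Between injured genotypes in flow-through, edgeR called 0 of the 10 members, where 0.0867% of genes were called higher and 0.0315% lower. DESeq2 also called 0, and 1 member had an unadjusted p under 0.05. This was Igfbp5 at -1.44 ± 0.44 log2 (adjusted p = 0.175, interval -2.31 to -0.57). Igfbp7 was at 2.92, 4.18 and 10.7 CPM in STAT3-CKO SCI, within the WT SCI range, with a difference of -0.54 ± 0.68 log2 (adjusted p = 0.77, interval -1.87 to 0.80). Injured STAT3-CKO against uninjured WT flow-through called 4 of 10 higher, Igf1, Igf2, Igf2r and Igfbp5, and 0 lower, where 10.4% of genes were called higher and 3.53% lower. Igfbp5 was at 1.43 ± 0.42 log2 there (adjusted p = 0.0201), and the call was lost without uninjured animal 65 or 154 or STAT3-CKO SCI animal 531 or 270. Without animal 531 it was 1.00 (adjusted p = 0.22). Igfbp7 was at 1.26 ± 0.62 log2 (adjusted p = 0.20), and at 2.10 without uninjured animal 42 (adjusted p = 0.0257). Igfbp4 was at 1.74 ± 0.66 log2 (adjusted p = 0.0816), with an adjusted p of 0.0318 without WT SCI animal 9596.

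**Figure D4:**
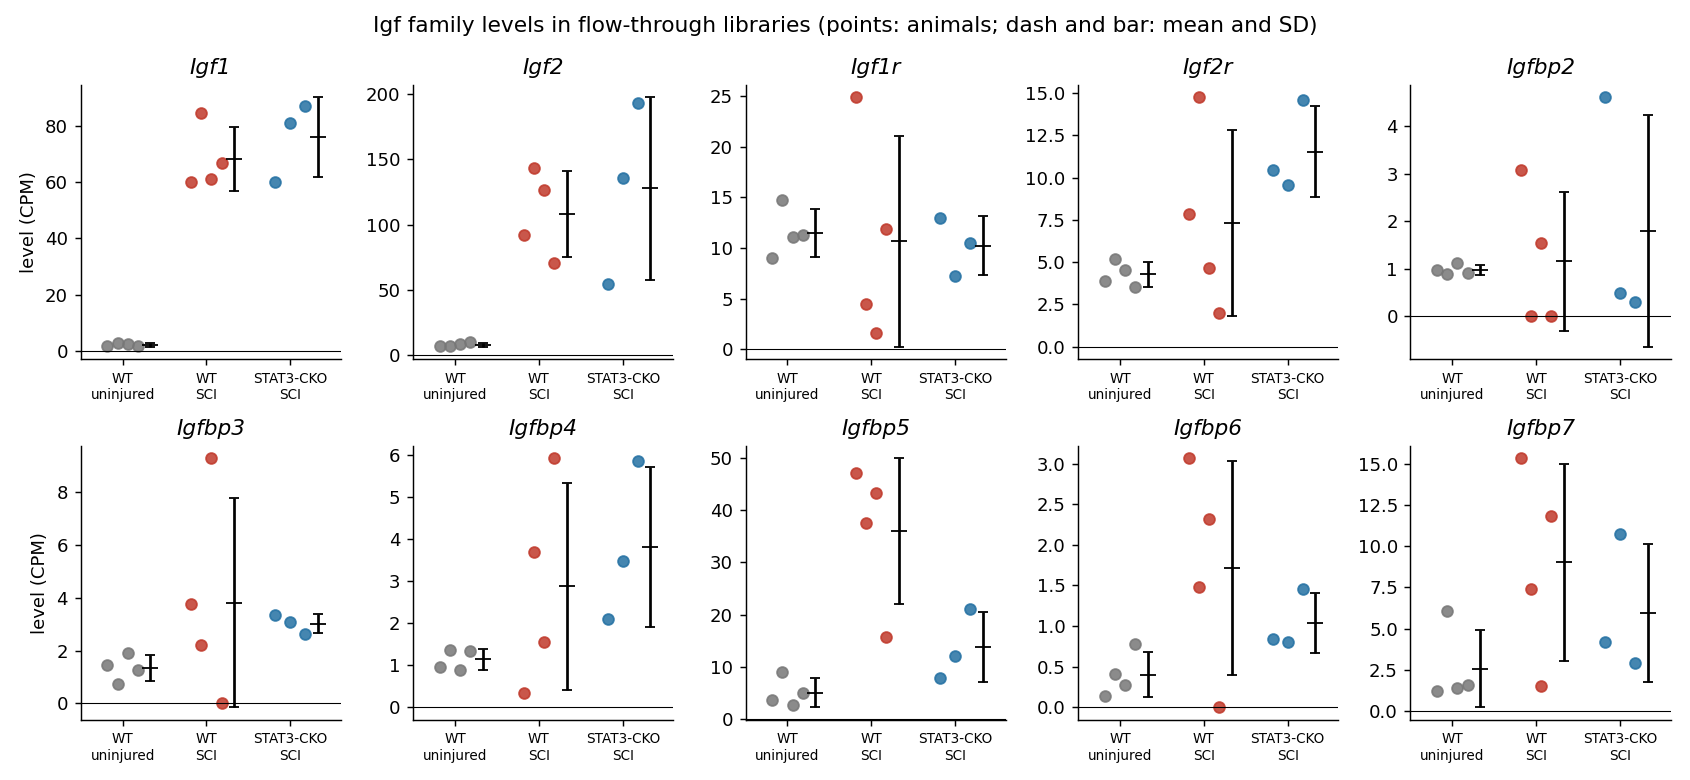
Level in CPM (vertical axis, linear, a separate scale for each gene) of the 10 members in flow-through libraries of WT uninjured (n = 4), WT SCI (n = 4) and STAT3-CKO SCI animals (n = 3). Points are animals, and the dash and bar are the mean and SD. Igf1 and Igf2 are apart between injured and uninjured libraries, while Igfbp7 in WT SCI runs from 1.55 to 15.3 CPM and overlaps with both other groups.

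HA IP was then set against flow-through of the same animals, in main fits without animal as a block. In uninjured cord, 3 of 10 members were higher in HA IP and 4 lower, where 26.4% of 14312 genes tested were called higher and 24.2% lower. Igfbp4 was higher by 4.17 ± 0.20 log2 (18-fold, adjusted p = 1.47e-07), Igfbp2 by 3.59 ± 0.26 (12-fold, adjusted p = 1.48e-06) and Igfbp5 by 2.80 ± 0.33 (6.97-fold, adjusted p = 4.45e-05). The lower ones were both ligands, Igf2r and Igfbp6, the last at -1.60 ± 0.58 log2 (adjusted p = 0.0381). The Igfbp6 call was lost without the flow-through library of animal 42, 79 or 65 or the HA IP library of animal 79, 65 or 154, with values of -1.10 to -1.71. Igfbp7 was at 0.68 ± 0.47 log2 (adjusted p = 0.25). Without the flow-through library of animal 42, whose 6.08 CPM stood apart from 1.22 to 1.6 in the others, Igfbp7 was at 1.63 (adjusted p = 7.68e-05).

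In WT SCI, 2 of the 9 members tested were higher in HA IP, Igfbp7 by 2.87 ± 0.59 log2 (adjusted p = 0.00541) and Igfbp5 by 1.52 ± 0.38 (adjusted p = 0.0186), and 2 were lower, the ligands. Among 8466 genes tested, 4.09% were called higher and 2.16% lower. Igfbp6 was not tested in the injured groups because its counts were too low. The Igfbp5 call ended when the HA IP library of animal 9874 was left out (1.26, adjusted p = 0.0537), or the flow-through library of animal 9843 (1.59, adjusted p = 0.0631). Igfbp2 was at 2.61 ± 0.90 log2 (adjusted p = 0.0902), and with animal as a block in the paired fit it was 2.68 (adjusted p = 0.0303). Igfbp4 was at 1.87 ± 0.88 (adjusted p = 0.23).

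In STAT3-CKO SCI, 3 of 9 were higher in HA IP and 3 lower, where 7.12% of 12659 genes were called higher and 4.7% lower. Igfbp2 was higher by 2.57 ± 0.76 log2 (adjusted p = 0.0340), Igfbp4 by 2.08 ± 0.45 (adjusted p = 0.00531) and Igfbp5 by 1.45 ± 0.35 (adjusted p = 0.0113). Igfbp7 was at 0.15 ± 0.52 log2 (adjusted p = 0.89). The Igfbp2 call was lost without either library of animal 531 or of animal 270, with values of 1.88 to 2.64. The Igfbp5 call ended when the HA IP library of animal 531 was left out (1.39, adjusted p = 0.0506).

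**Figure D5:**
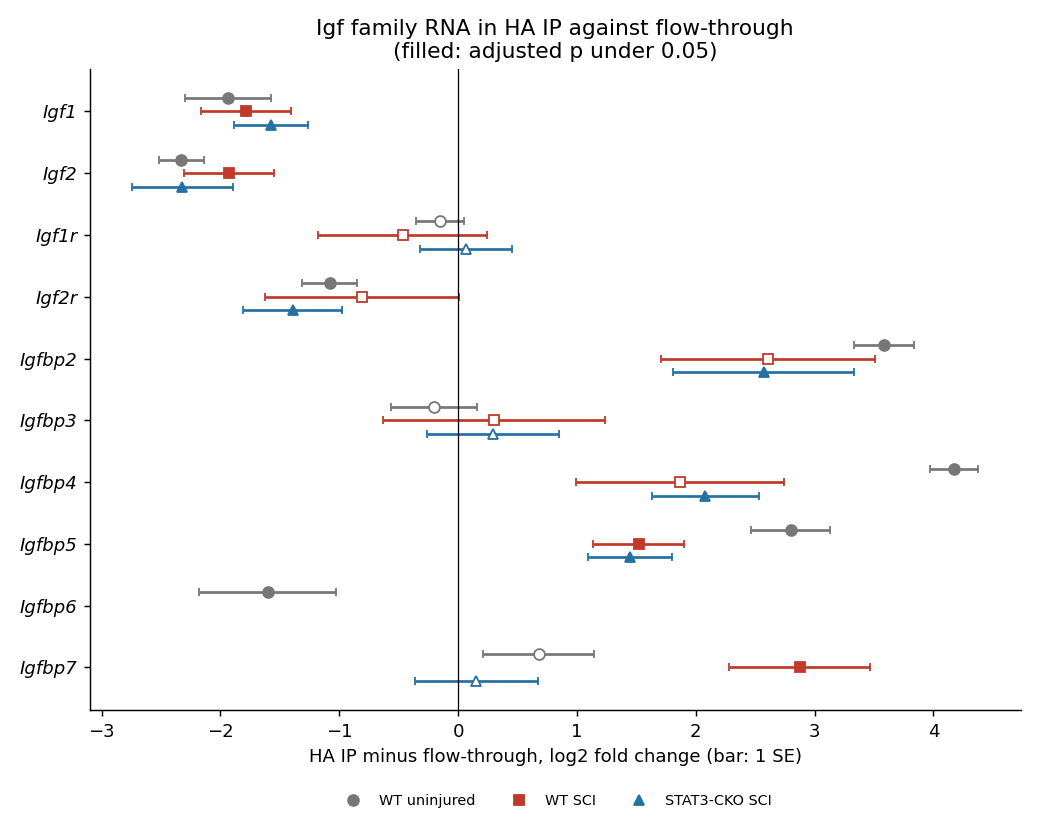
Log2 fold change of HA IP minus flow-through (horizontal axis, bars 1 SE) for each member in WT uninjured (circles), WT SCI (squares) and STAT3-CKO SCI (triangles). Filled symbols had an adjusted p under 0.05, and Igfbp6 was not tested in the injured groups. Igf1 and Igf2 lie left of 0 in all states, Igfbp2, Igfbp4 and Igfbp5 right of 0, and Igfbp7 lies at 2.87 in WT SCI and at 0.15 in STAT3-CKO SCI.

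Whether the injury difference itself differed between the fractions was tested in 1 fit of all 22 libraries. EdgeR called 0 of 10 members and DESeq2 called 0, where 2.67% of 15142 genes were called higher and 2.03% lower, and the median over all genes was 0.26 log2. Unadjusted p was under 0.05 for 3 members. Igfbp7 was at 2.39 ± 0.77 log2 (adjusted p = 0.07), Igfbp4 at -1.91 ± 0.80 (adjusted p = 0.19) and Igfbp5 at -1.07 ± 0.50 (adjusted p = 0.26). With animal as a block, 2 members were called: Igfbp4 at -2.06 (adjusted p = 0.0377) and Igfbp5 at -1.30 (adjusted p = 0.0490). Igfbp7 was then at 1.73 (adjusted p = 0.175). Igfbp7 also passed the threshold without the HA IP library of WT SCI animal 9843 (2.62, adjusted p = 0.0428) or 9596 (2.66, adjusted p = 0.0362), or the flow-through library of animal 9596 (2.98, adjusted p = 0.041).

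For the genotype difference after injury, edgeR and DESeq2 each called 0 of 10 members between fractions, where 0.0066% of genes were called higher and 0.0198% lower. Igfbp7 was at -2.79 ± 0.84 log2 (adjusted p = 0.60, interval -4.45 to -1.14), the only member with an unadjusted p under 0.05. The test did not show that the lower Igfbp7 of STAT3-CKO SCI differed between HA IP and flow-through.

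Of 23 tested genes of the PI3K-AKT-mTOR relay, 5 were called higher and 1 lower with injury in WT HA IP, with a median of 0.40 log2, where 15.8% of all genes were called higher and 10.9% lower. Pik3r1, a regulatory subunit of PI3K, was at 33.2 to 40.6 CPM in uninjured and 85.7 to 102 in WT SCI, without overlap (1.37 ± 0.23 log2, adjusted p = 0.000202). Pik3cd, the catalytic subunit best known from white blood cells, was higher by 2.86 ± 0.57 log2 (adjusted p = 0.00123), and Rheb, the activator of mTOR, was at -2.25 ± 0.52 log2 (adjusted p = 0.0038). In flow-through 4 of 22 were called higher and 1 lower, where 16.7% and 14.3% of all genes were, again with Pik3cd (2.65 ± 0.46 log2) and Rheb (-1.72 ± 0.43 log2) among them, and with Akt2 higher by 1.55 ± 0.34 log2. Of 9 tested genes of the insulin receptor family and its adaptors, 0 were called in HA IP. In flow-through the adaptor Shc1 was higher by 2.85 ± 0.70 log2 (adjusted p = 0.00295). Its WT SCI values there were 1.7, 1.97, 8.85 and 41.8 CPM, from 5, 1, 12 and 54 counts. They overlapped with the uninjured range of 0.673 to 3.63 CPM, and animal 9874 gave the highest. Grb10, an inhibitory adaptor, was at -0.99 ± 0.38 log2 in flow-through (adjusted p = 0.0499).

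With injury in WT HA IP, 15.8% of all genes were called higher and 10.9% lower. Of 5 genes of growth hormone input to Igf1, 1 was called higher and 1 lower. Stat5b, a transcription factor of that input, was higher by 1.38 ± 0.41 log2 (adjusted p = 0.0186), and Ghr, the growth hormone receptor, was at -1.86 ± 0.52 log2 (adjusted p = 0.013). In flow-through Stat5a was higher by 3.21 ± 0.76 log2 and Jak2 by 1.06 ± 0.39, where 16.7% of all genes were called higher. The WT SCI values of Stat5a rested on 1, 3, 3 and 18 counts (0.738 to 6.13 CPM), against 0.301 to 0.563 CPM in uninjured flow-through. Jak2 was at 5.91 to 18.6 CPM in WT SCI, which overlapped with 5.49 to 7.11 CPM in uninjured flow-through. Of 2 tested genes for IGF2 mRNA-binding proteins, 0 were called in HA IP.

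Among 6 tested genes for IGF proteases and carriers, Htra1 was the 1 called in HA IP with injury in WT and between the injured genotypes. Of all genes, 15.8% were called higher and 10.9% lower with injury, and 0.596% and 0.562% between the genotypes. Htra1, a secreted serine protease known to cut Igfbp5, was at 62.2 to 79.8 CPM in uninjured, 13.6 to 25.7 in WT SCI, against 41.6 to 58.7 in STAT3-CKO SCI HA IP, and no pair of groups overlapped. Its injury difference was -1.84 ± 0.26 log2 (adjusted p = 4.14e-05) and its genotype difference after injury 1.27 ± 0.27 log2 (adjusted p = 0.0257). These directions are opposite to those of Igfbp5 RNA in the same libraries, and a link between the 2 genes was not tested. In flow-through Adam12, a membrane protease that can cut binding proteins, was higher with injury by 2.16 ± 0.77 log2 (adjusted p = 0.0347). Its WT SCI libraries there had 0, 4, 9 and 10 counts (0 to 7.38 CPM), against 0.303 to 1.37 CPM in uninjured, so the groups overlapped. Of 5 tested genes of the CCN family, whose proteins share a domain with IGF binding proteins, Wisp2 was the 1 called. It was at 0.0035 to 0.0796 CPM in uninjured, 4.88 to 12.1 in WT SCI, against 0 to 0.294 in STAT3-CKO SCI HA IP. Wisp2 was called higher with injury (adjusted p = 2.51e-05) and lower in STAT3-CKO than in WT SCI (adjusted p = 0.0119). Htra1 and Wisp2 were the only genes of the 6 lists called between the injured genotypes in HA IP, and 0 were called in flow-through.

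The genes most like each member over the 11 HA IP libraries were taken by Pearson correlation of log2 CPM, as a description: the libraries fall into 3 groups, which carries much of each r. For Igf1 these included Plek (0.983), and for Igf2 they included Gpnmb (0.989) and Ftl1 (0.988). For Igfbp7 they were Ndrg1 (0.967), Anxa7 (0.965) and Mospd3 (0.962), and for Igfbp5 Pgrmc2 (0.971), Nudt6 (0.956) and Anxa7 (0.949), so Anxa7 stood in both sets. For Igfbp4 the nearest was Cpt1a (0.941) and for Igfbp2 Cdc42ep4 (0.91). Over the 11 flow-through libraries, the nearest to Igf1 were H2-T23 (0.992), Cd84 (0.988) and Lyz2 (0.988), and to Igf2 Lair1 (0.987), Ftl1 (0.986) and Spp1 (0.984).

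On GRCm38 with GENCODE vM21, Igfbp2 (chromosome 1, 72824503 to 72852474, plus strand) and Igfbp5 (chromosome 1, 72857932 to 72874884, minus strand) are neighbours with 5457 bases between them, and their HA IP levels took different courses after injury. Igfbp7 lies on chromosome 5 (77349240 to 77408041, minus strand) and shares 85 exon bases with Polr2b on the other strand. Igf2 (chromosome 7, 142650766 to 142666816, minus strand) shares 3596 exon bases with Gm49394 on its own strand and 98 with the antisense gene Igf2os. Igf1 (chromosome 10, 87858265 to 87937042, plus strand) and Igf2r (chromosome 17, 12682406 to 12769664, minus strand) overlap antisense genes without shared exon bases. The strand setting of the counting is not given in the sources used here, so reads of such partners cannot be told apart.

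In the authors' deposited table, the log2 fold changes of the 10 members had the sign found here for 10 of 10 in the HA IP injury comparison and 10 of 10 in the HA IP genotype comparison. At a false discovery rate of 0.05 the authors' deposited table called 7 members with injury in HA IP, the 6 named above and Igfbp6 (2.15 log2, rate 0.0103). For the genotype comparison it called Igfbp5 (-1.55 log2, rate 0.000835) and Igfbp7 (-3.28 log2, rate 6.87e-07). In flow-through the authors' deposited table called 6 members with injury, against 5 here, and 0 between genotypes.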

How the data were processed

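Per the labels' protocols, cDNA was made from 5 ng of RNA and libraries were enriched by PCR. CASAVA 1.8.2, edgeR and mm10 are named in the submitters' processing notes. For aligner, counter, annotation and strand setting the sources used here give nothing. The authors deposited raw read counts per gene with no normalization, and, per the file headers, their own log2 fold changes and p-value and false discovery rate columns. Left unused were 124 more columns with values per sample.

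Counts were fitted with edgeR 4.0.16 in R 4.3.3 (filterByExpr, TMM, two-sided quasi-likelihood test): 11 libraries per fraction, the libraries of each state for HA IP against flow-through, and all 22 for the difference between fractions. The SE is the absolute log2 fold change over the square root of F, and intervals are log2 fold change ± 1.96 SE. These intervals are approximate and narrower than the quasi-likelihood test implies. The procedure was tested on simulated data. Replicates were separate animals (chi-square over its degrees of freedom was at least 4.83 between replicates). The 2 libraries of an animal come from the same tissue, and their deviations correlated at 0.254 to 0.649. The main fits between fractions did not use this pairing, and the animal block was an alternative. Named were all 10 members, up to 2 called genes per direction and pathway list, and the 3 most alike genes, of which some are not reported here. Alternatives were DESeq2 1.42.0, RLE scaling, no filter, thinning, ribosomal rows left out, fewer or more groups per fit, the animal block and leaving out libraries. Members and lists were chosen with earlier results of these data known.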

Additional observations from a re-analysis of the deposited data

Results flagged for a closer look

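Extreme single libraries were looked for with Dixon's test at the 95% level in the 40 groups of 4 libraries (10 members, uninjured WT and WT SCI, both fractions), where chance flags about 1 in 20 groups. It marked 2, both in uninjured animal 42. Igfbp5 in HA IP of this animal was at 36.32 CPM, against 27.4 to 28.9 CPM in the other 3 uninjured animals. Igfbp7 in flow-through of this animal was at 6.076 CPM, against 1.22 to 1.60 CPM in the other 3.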

How the results depend on the processing

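Of 36 differences called among the members, 20 were called under every alternative and 15 were lost under at least 1. Igfbp5 with injury in flow-through was called wherever it was tested, but the filter dropped it after thinning. No difference larger than its SE changed sign (smaller ones have no direction to turn). The number of members called changed by over 1.5 times in these cases. With only the compared groups in the fit, it was 1 in place of 2 for genotype in HA IP, 4 in place of 2 for STAT3-CKO SCI against uninjured in HA IP, and 3 in place of 5 for injury in flow-through. After thinning to equal depth it was 2 in place of 5 for injury in flow-through and 2 in place of 4 for STAT3-CKO SCI against uninjured in flow-through, since the filter then dropped the others. Without animals 9935 and 270, an alternative chosen after seeing the data, it was 1 for genotype in HA IP and 2 in place of 6 for HA IP against flow-through in STAT3-CKO SCI. With the animal as a replicate block, it was 2 in place of 0 for the injury difference between fractions, and beside these and Igfbp2 in WT SCI the paired block changed no other call.

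Leaving out 1 library at a time gave 4 to 7 members called for injury, 1 to 2 for genotype and 2 for STAT3-CKO SCI against uninjured in HA IP. In flow-through it gave 3 to 6, 0 and 2 to 5. For HA IP against flow-through it gave 6 to 7 in uninjured cord, 2 to 4 in WT SCI, with 3 to 5 in STAT3-CKO SCI, and for the differences between fractions 0 to 1 for injury and 0 for genotype. The cause of these changes was not tested, except that fewer libraries or counts were fitted. The few counts of WT SCI flow-through limit Igfbp2, Igfbp3, Igfbp4 and Igfbp6 there most.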
